A study of Mus musculus with 8 samples.

Results

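Histone and DNA modifying enzymes were examined in 10 deposited tables of alternative splicing from mouse germ cells. Members were all genes whose symbol begins with Kdm, Kmt, Setd, Hdac, Kat, Ehmt, Nsd, Prmt or Suv39h and a digit, or with Dnmt1, Dnmt3, Ezh1 or Ezh2. This gave 70 genes of 12587 in the tables: 24 lysine methyltransferases, 18 lysine demethylases, 7 acetyltransferases, 11 deacetylases, 6 arginine methyltransferases and 4 DNA methyltransferases. The symbol rule does not test for an enzyme's substrate. Setd3, for example, methylates actin, and Prmt3 is known for a ribosomal protein substrate.

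These enzymes add or remove methyl and acetyl groups on histone tails and methyl groups on cytosine. Acetylation loosens chromatin and goes with transcription, while methylation of histone H3 marks active genes or silenced ones, depending on the residue. In male germ cells such marks are rewritten through meiosis, where the sex chromosomes are silenced, and again in the haploid spermatids that follow, ahead of the exchange of histones for protamines.

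RNA with poly(A) tails came from FACS-sorted round spermatids, the haploid cells after meiosis, and spermatocytes, the cells in meiosis, of adult C57BL/6 mice. Each stage had a Larp7 knock-out and a wild-type group, with 2 libraries in each group and 8 libraries in all. Larp7 is a protein of the 7SK RNA particle. The series calls the knock-out conditional. The labels name no Cre line. The table headers number the sample groups of a stage and do not name their genotype, so differences within a stage are the first minus the second sample group, with no genotype direction. The first groups of the 2 stages are not assumed to share a genotype. The libraries are labelled as biological replicates without saying that each came from its own animal, so p-values measure the spread between these libraries. The libraries of a group differed by more than sampling noise and were counted separately.

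Each table row is a splicing event with reads that include or skip the alternative part. Reads over events summed to between 49904607 and 93265932 per round spermatid library and to between 51786242 and 102000320 per spermatocyte library. Overlapping events share reads, and library totals are unknown. Larp7, the targeted gene, had 274 and 341 event reads per 1000000 in the first sample group of round spermatids against 1163 and 1259 in the second. In spermatocytes it had 183 and 219 in the first group against 1146 and 1077 in the second. The Larp7 cassette exon with the widest gap in spermatocytes, of 125 nt, had 0.28% and 0.60% inclusion against 100% and 100% in round spermatids, and 2.4% and 0.95% against 100% and 100% in spermatocytes. Of 18 round spermatid markers listed 11 were tested between the stages, and all 11 were higher in round spermatids. Of 15 spermatocyte markers tested 12 were lower there and 2 were higher. Tssk1, Tssk2, Tnp1, Tnp2, Prm1 and Prm2 of the round spermatid list have no event in the tables, and Acrv1 has none in spermatocytes.

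Member events numbered 334 in 67 genes in round spermatids and 538 in 70 genes in spermatocytes. Kdm2a, Kdm4c and Prmt9 had none in round spermatids. A gene's abundance was followed by its most covered event, as inclusion plus skipping reads per 1000000 such reads summed over genes (CPM). This is a stand-in for a gene count, since a gene without an alternative event is not seen and a switch of splicing can move it. Where 4 values are given for a stage, the libraries of the first sample group come before those of the second. In these bulk samples, fewer cells of a type and less RNA per cell cannot be told apart.

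Between the stages, 60 members had an event in both tables with an average of at least 10 reads per library. By limma with Benjamini-Hochberg adjustment over all 8512 genes, 10 members were higher in round spermatids and 36 were lower. Among all genes tested, 28.5% were called higher and 49.8% lower (78.3% called in all), so most genes tested were called. The members' shares were 16.7% and 60%. The stages did not overlap for 42 of the 60 members and for 5824 of all 8512 genes. The summed level of the members was 3070, 3101, 3003 and 3069 CPM in round spermatids and 4504, 4570, 4363 and 4450 CPM in spermatocytes. The median log2 difference, round spermatids minus spermatocytes, was -0.91 over the members and -0.45 over all genes. With median-ratio scaling of the libraries, which moved the median of all genes to -0.02, 16 members were higher and 32 lower. Among all 8512 genes that scaling gave 3262 higher and 3155 lower. The members called higher with it but not called with the scaling used elsewhere were Ehmt2, Hdac1, Hdac4, Kat8, Nsd2 and Prmt7. Ehmt2 was also called higher in 2 of the 8 fits that leave out a library, and Hdac4 within the second sample groups. For 5 of the called members (Dnmt3l and Hdac9, higher, and Kat6b, Dnmt3b and Ehmt1, lower) the stage with fewer reads averaged under 10 reads per library, so they passed the read minimum only through the other stage. Each stage's own most covered event was also read, a description added after the values were seen. By it 41 of the 42 called members with such values in both stages had the same direction, and Nsd1 had the other. Setd3 kept its direction at a log2 difference of only -0.087, where the shared event gave -1.48. Among members not called, Nsd2, Hdac4, Dnmt3a and Suv39h1 had the other direction. Of the 10 members not tested Hdac7, Kmt2a, Prmt2, Kdm6a and the Y-linked Kdm5d averaged too few reads. Hdac8, Kdm2a, Kdm4c, Prmt3 and Prmt9 had no event in the tables of both stages.

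**Figure D1:**
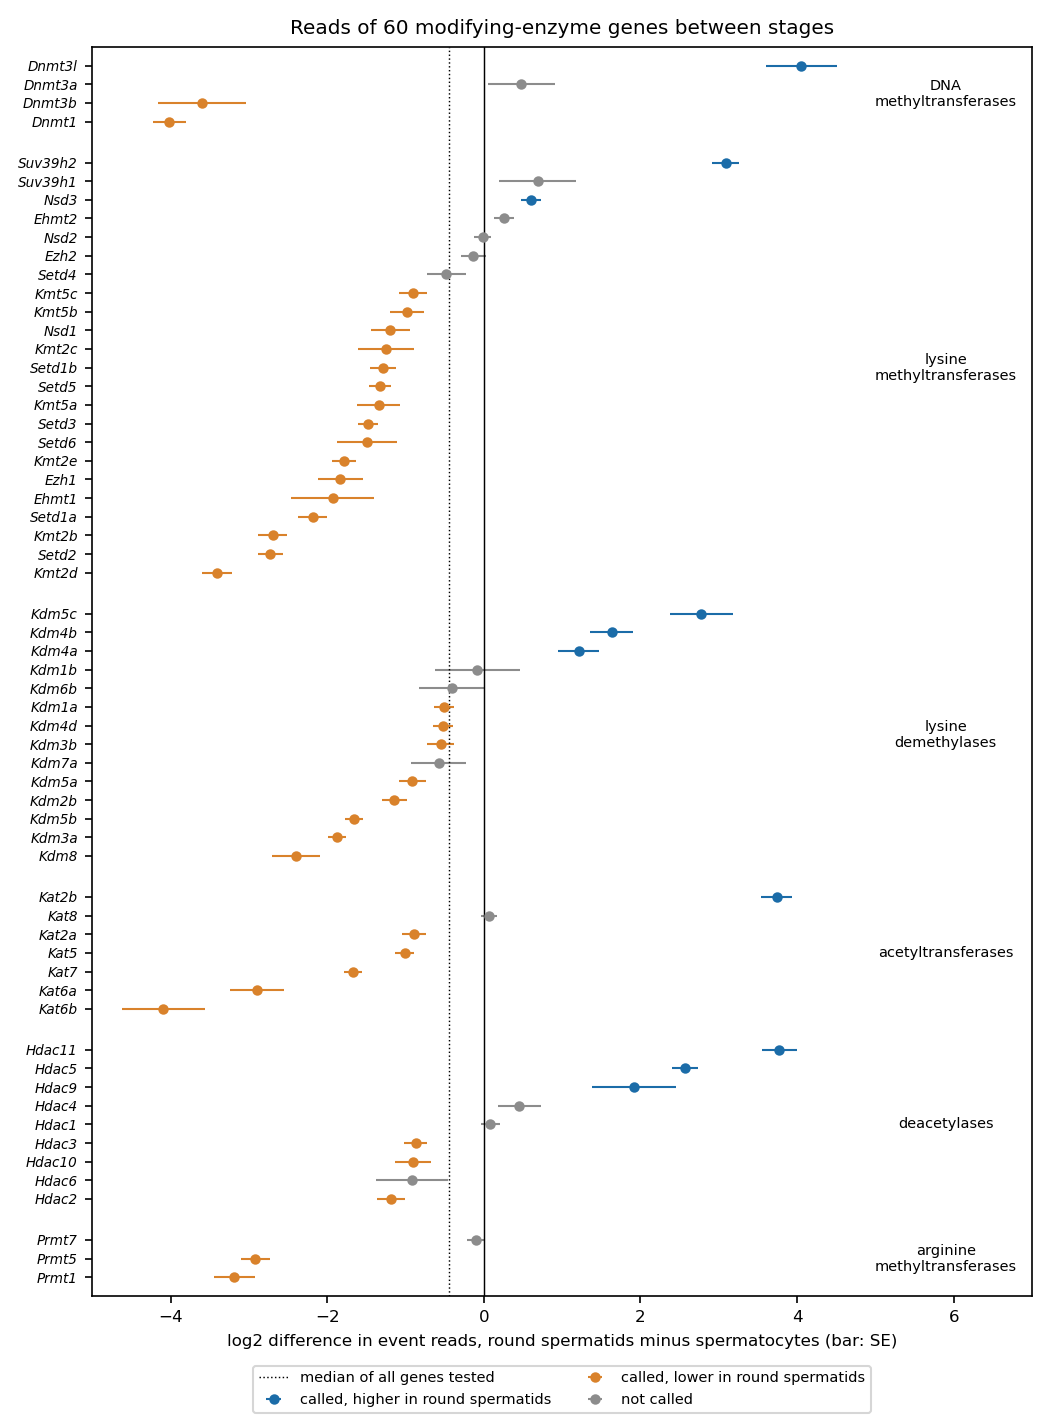
Log2 difference in event reads (x axis, round spermatids minus spermatocytes, 4 libraries each) for the 60 members tested, grouped by class on the y axis. Bars are standard errors, colours show the limma call, and the dotted line is the median of all genes at -0.45. Dnmt3l, Hdac11, Kat2b and Suv39h2 lie above 3, and Kat6b and Dnmt1 below -4.

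Of the 4 DNA methyltransferases 1 was higher in round spermatids, 2 were lower and 1 was not called. Dnmt3l, a cofactor of the de novo enzymes that has no catalytic activity of its own, had 7.02 and 7.90 CPM in the first and 11.5 and 8.99 CPM in the second sample group of round spermatids. Its spermatocyte libraries had 0.37 and 0.74 CPM in the first and 0.90 and 0.20 CPM in the second group, so the stages did not overlap. The log2 difference was 4.05 (SE 0.45, limma adjusted p = 3.13e-06), on few spermatocyte reads. Dnmt1, the maintenance enzyme that copies methylation after replication, ran the other way. It had 2.01, 2.05, 2.41 and 1.86 CPM in round spermatids and 31.9, 26.0, 43.0 and 38.4 CPM in spermatocytes, a log2 difference of -4.02 (SE 0.21, adjusted p = 3.11e-09). The de novo enzyme Dnmt3b averaged 0.35 ± 0.36 CPM in round spermatids and 4.15 ± 2.64 CPM in spermatocytes (SD, n = 4 each), a called log2 difference of -3.60 that rests on less than 1 CPM in each round spermatid library. Summed spermatogonium markers, present in both tables for 4 of 10 genes, were 18.8, 11.5, 16.6 and 13.2 CPM in round spermatids against 278, 114, 44.7 and 40.5 CPM in spermatocytes. Sertoli markers, present for 4 of 8 genes with Sox9 and Gata4 absent, were 79.8, 108, 51.4 and 65.9 CPM against 237, 158, 49.4 and 81.1 CPM. In both sums, as for Dnmt3b, the first library of the first spermatocyte group was the highest, and their part in these differences was not tested. Dnmt3a, the other de novo enzyme, averaged 3.34 ± 0.63 CPM and 3.35 ± 3.38 CPM and was not called (adjusted p = 0.322).

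Among the lysine methyltransferases 2 of 23 tested were higher and 16 lower in round spermatids. Suv39h2, a testis-enriched writer of H3K9 methylation in heterochromatin, had 188, 194, 250 and 224 CPM in round spermatids. Its spermatocyte libraries had 41.6, 23.2, 19.6 and 20.7 CPM. The lowest round spermatid library thus lay more than 4-fold above the highest spermatocyte library, and the log2 difference was 3.09 (SE 0.17, adjusted p = 4.06e-09). Its X-linked relative Suv39h1 averaged 2.51 ± 0.97 CPM in round spermatids and 2.85 ± 3.27 CPM in spermatocytes, overlapped between the stages and was not called. That depended on the event. By each stage's own most covered event it had 2.78, 3.05, 1.68 and 1.28 CPM in round spermatids. The spermatocyte libraries then had 31.1, 5.41, 1.40 and 2.92 CPM. Ehmt2 (G9a), which writes H3K9 mono- and dimethylation, had 340, 419, 336 and 447 CPM against 281, 322, 319 and 364 CPM, with overlap (log2 difference 0.26, adjusted p = 0.085). Its partner Ehmt1 was called lower at 0.49 ± 0.09 against 2.86 ± 3.05 CPM, where 1 spermatocyte library at 7.34 CPM sets most of the mean.

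Promoters of 55 of the 70 members are in the RefSeq table of mouse GRCm38.p6, each 300 bases from 250 before to 50 after a gene start. The octamer TGACGTNA (the cAMP response element, bound by CREM in spermatids) and GTTGCCAT (bound by RFX factors) were searched on both strands. The first was in 2.93% of all 32851 promoters and the second in 1.345%. Counted by gene, the first was in 908 and the second in 416 of 27025 genes. Of the 8 genes higher in round spermatids that have a promoter there, Suv39h2 held the first, and Dnmt3l and Hdac9 the second. Dnmt3l and Hdac9 passed the read minimum only through round spermatids, so their matches are not read as a result. Of the 27 lower genes Kdm5b held the first and Kmt5c the second. The promoters of Suv39h2 and Dnmt3l, which hold a match, are shown with the octamer in capitals and are credited to RefSeq. Those of Hdac11 and Kat2b, higher at log2 differences of 3.78 and 3.74, hold neither octamer. A match describes letters only, not a site or a cause.
Suv39h2, chr2:3474937-3475236, minus strand: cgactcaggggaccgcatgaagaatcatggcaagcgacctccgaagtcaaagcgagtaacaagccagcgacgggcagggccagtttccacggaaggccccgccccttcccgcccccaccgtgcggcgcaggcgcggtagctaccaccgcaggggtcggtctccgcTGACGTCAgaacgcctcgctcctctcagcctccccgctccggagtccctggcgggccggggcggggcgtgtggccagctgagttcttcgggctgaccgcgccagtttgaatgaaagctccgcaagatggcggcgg
Dnmt3l, chr10:78042037-78042336, plus strand: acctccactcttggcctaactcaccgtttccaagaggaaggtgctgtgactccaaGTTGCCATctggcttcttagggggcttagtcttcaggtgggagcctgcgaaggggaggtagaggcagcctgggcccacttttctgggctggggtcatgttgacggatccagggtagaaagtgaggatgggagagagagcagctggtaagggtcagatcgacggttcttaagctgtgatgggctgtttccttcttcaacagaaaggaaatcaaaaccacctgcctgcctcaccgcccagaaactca
The Suv39h2 match begins 85 bases before the gene start and the Dnmt3l match 195 bases before the first of its 3 listed starts.

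Of the large writers of H3K4 methylation Kmt2b, Kmt2c, Kmt2d, Setd1a and Setd1b were lower in round spermatids, and Kmt2a was not tested. Kmt2d, an enhancer enzyme, had 4.13, 5.44, 2.98 and 3.23 CPM in round spermatids against 38.3, 46.1, 39.3 and 41.1 CPM in spermatocytes (log2 difference -3.41, SE 0.19, adjusted p = 4.79e-09). Kmt2b, which acts at promoters, had 13.3, 19.0, 8.66 and 13.4 CPM against 98.5, 87.2, 78.1 and 77.8 CPM. No round spermatid library of either gene reached the lowest spermatocyte library. The log2 difference was -2.19 for Setd1a, -1.29 for Setd1b and -1.25 for Kmt2c, which overlapped between the stages. Kmt2e, a related SET-domain protein, was lower by a log2 difference of -1.79. Setd2, the main writer of H3K36 trimethylation, had 12.6, 10.7, 8.27 and 10.2 CPM against 64.1, 72.2, 75.5 and 63.4 CPM (log2 difference -2.73, SE 0.16, adjusted p = 7.72e-09). The H3K36 dimethylation enzymes of the Nsd group differed among themselves. Nsd3 was higher (0.60, SE 0.13, adjusted p = 0.000882), and Nsd2 stood at 213 ± 17.2 and 215 ± 15.4 CPM. The direction of Nsd1 depended on the event: its most covered event in both tables was called lower (-1.20), whereas each stage's own most covered event had 64.8, 49.2, 58.2 and 52.4 CPM in round spermatids against 36.2, 24.6, 13.98 and 16.3 CPM in spermatocytes.

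Ezh2, the catalytic subunit of Polycomb repressive complex 2 that writes H3K27 methylation, had 106, 79.6, 122 and 88.0 CPM in round spermatids and 123, 110, 112 and 86.3 CPM in spermatocytes. The stages overlapped, and it was not called (log2 difference -0.13, adjusted p = 0.44, and 0.29 with median-ratio scaling). Its paralog Ezh1 was lower (-1.83, SE 0.29). Of the 10 partners of the complex listed, 7 were tested and 6 were lower, with none higher. Among all genes tested 49.8% were lower and 28.5% higher. Suz12, a core subunit, averaged 19.2 ± 2.29 CPM in round spermatids and 45.7 ± 7.96 CPM in spermatocytes. Eed, the subunit that reads the mark, averaged 25.4 ± 3.73 and 37.6 ± 2.86 CPM.

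**Figure D2:**
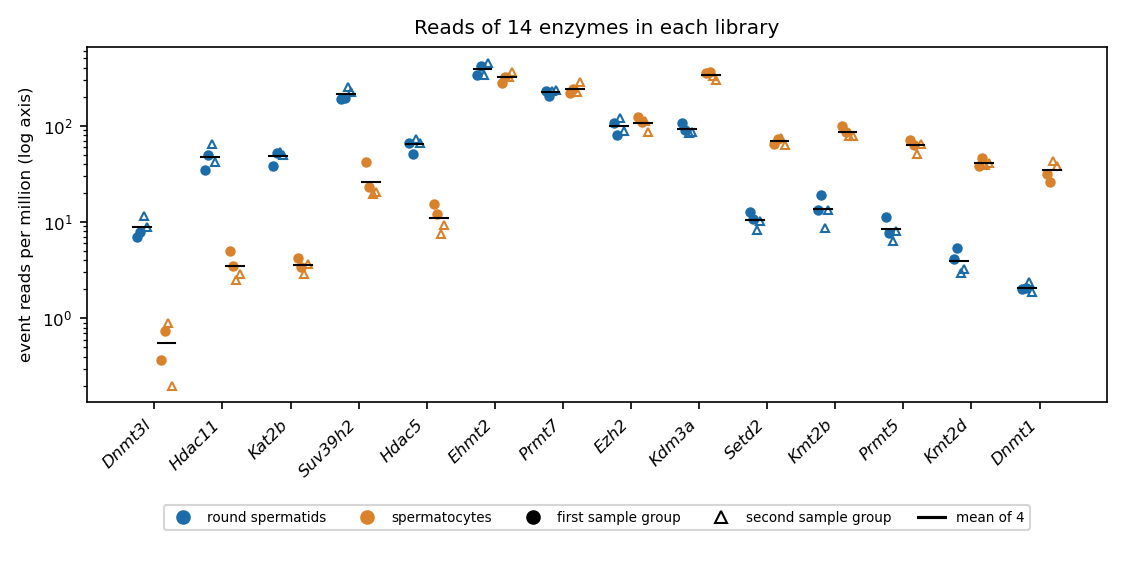
Event reads in CPM (log axis) of 14 enzymes in each library, with round spermatids left of spermatocytes for each gene, circles for the first and triangles for the second sample group, and a line at the mean of 4 libraries. Dnmt3l, Hdac11, Kat2b, Suv39h2 and Hdac5 do not overlap between the stages and are higher in round spermatids, while Ehmt2, Prmt7 and Ezh2 overlap.

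Of the 14 lysine demethylases tested 3 were higher and 8 lower. Kdm5c, an X-linked eraser of H3K4 methylation, had 13.4, 8.66, 10.2 and 5.08 CPM in round spermatids against 3.18, 1.04, 0.90 and 0.79 CPM in spermatocytes. The groups did not overlap (log2 difference 2.78, SE 0.40, adjusted p = 3.05e-05). Its autosomal relatives went the other way: Kdm5b averaged 124.5 ± 9.61 and 393 ± 22.3 CPM (log2 difference -1.66) and Kdm5a was lower by a log2 difference of -0.92. Kdm4a and Kdm4b, erasers of H3K9 and H3K36 methylation, were higher at log2 differences of 1.21 and 1.63. Kdm4d, a testis-enriched member of the same family, had 99.2, 75.0, 67.4 and 67.3 CPM against 102, 108, 117 and 110 CPM (-0.52, SE 0.13, adjusted p = 0.00262). Kdm8, a JmjC-domain protein, was lower at 2.38 ± 0.78 against 12.4 ± 2.55 CPM (-2.40). Kdm3a, which erases H3K9 methylation and is needed in mice for the protamine and transition protein genes, had 107, 89.7, 85.0 and 86.5 CPM against 351, 366, 333 and 299 CPM (-1.88, SE 0.11, adjusted p = 9.71e-09). Kdm1a (Lsd1) averaged 81.8 ± 23.2 and 113 ± 11.3 CPM (-0.51, adjusted p = 0.00206) with overlap. Kdm3b was called lower (-0.55, adjusted p = 0.00886) but not without the first library of the first spermatocyte group, and its difference was 0.049 within the second sample groups. The calls of Kdm1a, Kdm4d, Kdm3b and the deacetylase Hdac10 were lost with median-ratio scaling.

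Acetyltransferases held 1 gene higher and 5 lower of 7 tested. Kat2b (Pcaf) had 37.9, 52.2, 53.4 and 49.2 CPM in round spermatids against 4.28, 3.44, 2.89 and 3.65 CPM in spermatocytes, a log2 difference of 3.74 (SE 0.20, adjusted p = 3.21e-09). Kat2a (Gcn5), its paralog in the same SAGA-type complexes, had 23.1, 28.3, 22.1 and 28.4 CPM against 52.2, 51.0, 44.6 and 41.5 CPM (-0.90, SE 0.15, adjusted p = 0.000147). The pair thus moved in opposite directions, each without overlap. Kat6b and Kat6a, of the MYST family, were lower by log2 differences of -4.09 (SE 0.52) and -2.90 (SE 0.34), with Kat6b at 0.75 ± 0.58 against 10.4 ± 0.58 CPM. Kat5 (Tip60), which acetylates H4 and the histone variant H2A.Z, had 144, 150, 131 and 137 CPM against 234, 292, 280 and 334 CPM (-1.01, SE 0.12). Kat7 fell by 1.67 on the log2 scale, and Kat8 (Mof), the writer of H4 lysine acetylation in the MSL and NSL complexes, had 251, 229, 224 and 228 CPM against 232, 227, 212 and 221 CPM and was not called (adjusted p = 0.601).

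Deacetylases split evenly, with 3 higher, 3 lower and 3 not called. Hdac11, the single class IV enzyme, had 34.8, 49.4, 64.0 and 42.2 CPM in round spermatids against 5.02, 3.50, 2.49 and 2.86 CPM in spermatocytes (log2 difference 3.78, SE 0.23, adjusted p = 8.02e-09). Hdac5, a class IIa enzyme, had 65.7, 50.4, 73.1 and 66.9 CPM against 15.3, 12.04, 7.58 and 9.28 CPM (2.57, SE 0.17, adjusted p = 2.21e-08). Hdac9 of the same class was called higher at 1.90 ± 0.70 against 0.46 ± 0.18 CPM, on 10, 38, 28 and 16 reads against 4, 6, 7 and 3 reads, and the call was lost within the first sample groups. The class I enzymes tested were lower or not called. Hdac3 had 43.3, 55.8, 41.5 and 56.7 CPM against 95.2, 91.8, 80.4 and 91.1 CPM (-0.87, SE 0.15, adjusted p = 0.00014), Hdac2 fell by 1.19 on the log2 scale, and Hdac1 averaged 324 ± 38.1 and 306 ± 35.4 CPM. Hdac6, the X-linked tubulin deacetylase, averaged 2.31 ± 0.74 and 6.72 ± 7.06 CPM and was not called (adjusted p = 0.0844).

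Of 3 arginine methyltransferases tested none was higher and 2 were lower. Prmt5, which makes symmetric dimethylarginine on histones and on Sm proteins of the spliceosome, had 11.4, 7.78, 6.35 and 8.11 CPM in round spermatids against 71.7, 63.3, 51.4 and 65.2 CPM in spermatocytes (log2 difference -2.92, SE 0.19, adjusted p = 1.52e-08). Prmt1, the main asymmetric enzyme, had 1.67, 1.70, 2.21 and 2.44 CPM against 40.9, 23.2, 12.9 and 9.47 CPM (-3.19, SE 0.26). Its difference was -4.16 within the first sample groups and -2.22 within the second, and that gap was not tested. Prmt7, a monomethylating enzyme, had 231, 202, 231 and 237 CPM against 218, 242, 224 and 286 CPM and was not called (adjusted p = 0.449).

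Partners and related genes from lists of complexes were read beside the members. Of 141 listed genes 105 were tested, with 26 higher, 60 lower and 19 not called. Among all genes tested 28.5% were higher and 49.8% lower, so most calls in these lists are shared with genes at large. Among COMPASS partners 3 were higher and 10 lower of 14. Dpy30, a core subunit, averaged 404 ± 53.4 CPM in round spermatids and 79.7 ± 14.03 CPM in spermatocytes, whereas menin (Men1) averaged 9.74 ± 2.85 and 47.8 ± 2.59 CPM. Deacetylase complexes had 7 higher and 12 lower of 23, and acetyltransferase complexes 8 and 14 of 30. Sgf29, the SAGA subunit that reads H3K4 methylation, averaged 320 ± 58.6 and 27.4 ± 6.91 CPM. Among 26 modifying enzymes with other names 6 were higher and 15 lower: Cdyl, a chromodomain protein, averaged 289 ± 107 and 17.2 ± 2.25 CPM, and the H3K9 writer Setdb1 47.8 ± 11.4 and 246 ± 44.8 CPM. Of 5 readers and heterochromatin proteins tested, 2 were higher and 3 lower. Between the round spermatid sample groups none of 104 listed genes tested was called by limma, against 0.0859% of all genes.

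Levels were ordered by CPM divided by the length of the event's forms, since reads alone favour long forms. In round spermatids Ehmt2 stood first at 385 ± 54.3, ahead of Hdac1 at 364 ± 41.8, and these 2 overlapped within their SD. Kat8 at 233 ± 11.96, Prmt7 at 212 ± 14.9 and Kat7 at 200 ± 31.4 followed. Kat8 and Prmt7 lay further apart than either SD, and Prmt7 and Kat7 did not. In spermatocytes Kat7 led at 619 ± 63.1, clear of Kdm5b at 377 ± 21.1. Suv39h2 ranked 10 of 60 in round spermatids and 37 of 60 in spermatocytes.

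Splicing of the members was compared between the stages on 243 events in 60 genes, as the log2 odds of inclusion. With limma adjusted over all 34455 events, 21 member events in 15 genes were called, 7 with more inclusion in round spermatids and 14 with less. That is 8.64% of member events, against 12.5% of all events (6.5% higher and 5.96% lower). By type, 6 of 21 retained introns of members were called, 5 of them lower, and 10 of 167 cassette exons. Among all events 31.6% of retained introns and 11.1% of cassette exons were called. Of the 740 retained introns called among all events, 652 were lower, so this direction is shared with introns at large. The member count was 12 without the first library of the second round spermatid group, 13 without the second library of the second spermatocyte group, 6 within the second sample groups alone, and 36 with reads added without scaling. The 3 Hdac5 events of smallest p, the Kat5 exon and the Ezh2 intron were called under each of the 15 alternatives run.

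Hdac5 carried 6 of the 21 called events. A 120-nt intron (mm10 chromosome 11, 102196118 to 102196237, minus strand) was retained at 7.22%, 6.17%, 8.29% and 7.58% in round spermatids against 27.4%, 22.7%, 27.6% and 35.7% in spermatocytes. All round spermatid libraries lay below all spermatocyte libraries, and the difference in log2 odds was -2.27 (SE 0.29, adjusted p = 2.98e-13). A neighbouring 83-nt intron (102195869 to 102195951) stood at 11.1%, 9.94%, 9.59% and 8.60% against 33.4%, 41.0%, 45.5% and 48.3%. Spliced reads of these 2 introns thus made up a larger part in the stage where Hdac5 reads were also higher. A mutually exclusive pair of exons stood at 13.6%, 12.1%, 12.7% and 11.8% against 30.3%, 40.8%, 35.2% and 30.7%, and a 666-nt intron at 51.7%, 62.6%, 58.8% and 83.4% against 90.8%, 86.8%, 100% and 100%, both without overlap. These events share exons and reads, so they are not separate observations.

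Kat5 had a 156-nt cassette exon, a multiple of 3 (chromosome 19, 5608802 to 5608957, minus strand), included at 64.1%, 64.7%, 64.6% and 61.7% in round spermatids against 43.5%, 44.2%, 46.1% and 46.8% in spermatocytes. Libraries of a stage lay within 4 points of each other. The difference was 18.6 points, or 1.09 in log2 odds (SE 0.17, adjusted p = 6.2e-09). Setd5, a chromatin protein of the Setd group, included a 97-nt exon at 26.6%, 26.7%, 37.7% and 44.0% against 16.5%, 15.0%, 20.2% and 22.8%, without overlap (adjusted p = 0.00302), a call that was lost in the fits within the first and within the second sample groups. Hdac6 retained a 950-nt intron at 27.5%, 33.2%, 21.3% and 33.5% against 5.78%, 7.64%, 16.9% and 5.04%. That call (adjusted p = 0.000168) rests on 15 to 42 reads per round spermatid library, and without the second library of the second spermatocyte group its adjusted p was 0.165, with a log2 odds difference of 1.79. It was also lost in the fit within the second sample groups.

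Setd4 used a longer form at an alternative 5 prime splice site of 618 nt at 8.43%, 17.0%, 8.11% and 10.8% in round spermatids against 54.1%, 37.2%, 32.4% and 17.8% in spermatocytes (adjusted p = 0.000741). The spermatocyte libraries were spread widely, and the lowest of them lay just above the highest round spermatid library. Kdm5a (82-nt exon, -16.6 points) and Kdm3b (mutually exclusive exons, -10.6 points) overlapped between the stages. Their calls held in 3 of the 8 fits that leave out a library for each gene, with log2 odds differences from -1.39 to -0.94 for Kdm5a and from -0.78 to -0.52 for Kdm3b. The remaining called events moved by less than 10 points. A 142-nt exon of Nsd2 stood at 95.4%, 91.4%, 94.97% and 93.8% against 79.9%, 84.7%, 90.3% and 86.9%, and a 1510-nt Ezh2 intron at 0.60% to 1.01% against 1.46% to 2.47%. Calls on exons within a few points of 0% or 100%, such as the 144-nt Ehmt2 exon at 99.2% to 99.9% against 99.9% to 100%, rest on a handful of reads of the rarer form.

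**Figure D3:**
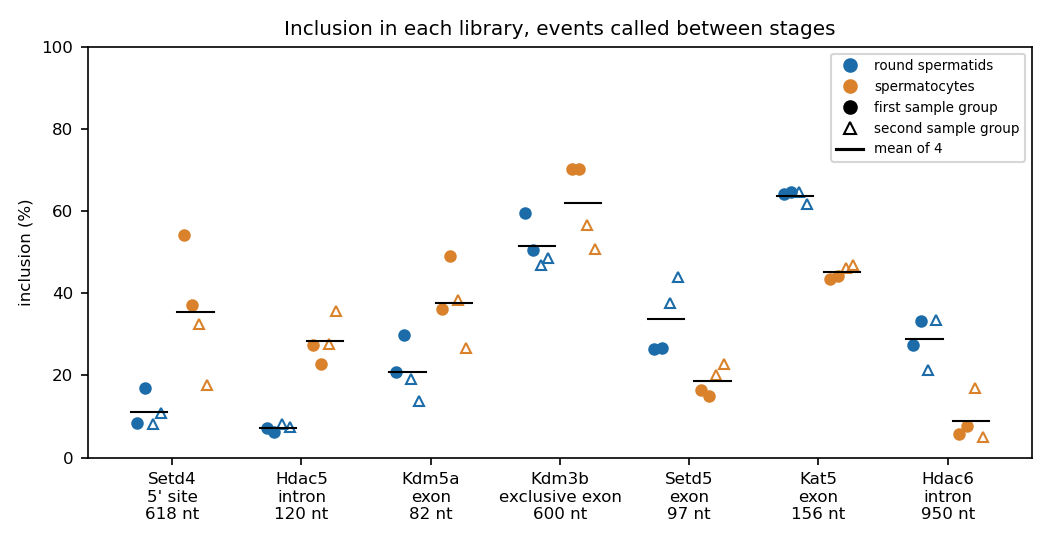
Inclusion in percent (y axis) of the called event of smallest p for each of 7 members whose stage means differ by at least 10 points, with round spermatids left of spermatocytes, circles for the first and triangles for the second sample group, and a line at the mean. Kat5 and Hdac5 show tight, separate stages, and Kdm3b and Kdm5a overlap.

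Most member exons varied little. Of 210 tested cassette exons of members in round spermatids 31 had a mean inclusion between 10% and 90%, and of 365 in spermatocytes 44 did. Mean inclusion was above 95% for 156 and 275 of them.

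Within spermatocytes, 7 of 65 members tested by reads were called between the sample groups, all higher in the first: Kdm3b, Prmt1, Dnmt3a, Ehmt1, Suv39h1, Hdac6 and Nsd1. That is 10.8% of members against 5.54% of all genes (4.71% higher). The groups did not overlap for 69.2% of members and for 57.6% of all genes. Kdm3b, an H3K9 demethylase, had 97.9 and 59.3 CPM in the first against 26.4 and 25.2 CPM in the second sample group (log2 difference 1.56, SE 0.23, limma adjusted p = 0.00443). Suv39h1 had 31.1 and 5.41 against 1.40 and 2.92 CPM, and Ehmt1 14.5 and 3.71 against 1.15 and 0.97 CPM. Dnmt3a had 7.82 and 3.86 against 0.74 and 0.97 CPM, Hdac6 25.7 and 11.9 against 3.04 and 7.95, Prmt1 69.8 and 37.5 against 24.6 and 15.7, and Nsd1 36.2 and 24.6 against 13.98 and 16.3. In each the first library of the first group was the highest. Kdm3b alone was called in each of the 4 fits that leave out a library. In those fits 1 member was called when the first library of the first group was left out, 13 without its second library, 2 without the first library of the second group and 4 without its second. Scaling by the median ratio, under which the median of all genes was -0.0056 in place of 0.16, gave 7 members higher and 1 lower. The lower member was Dnmt1, with 57.7 and 49.2 against 66.5 and 83.3 CPM. Of the 9861 genes tested, 456 were called higher and 273 lower under that scaling.

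Summed markers of spermatogonia, Sertoli cells and spermatocytes separated the sample groups and were higher in the first. The sums for elongating and round spermatids were lower there. Of 10 spermatogonium markers 8 were tested, each higher in the first sample group and 6 called, and their summed level was 493 and 185 CPM in the first against 69.3 and 66.4 CPM in the second. Gfra1 and Sall4 of that list have no event. Sertoli cell markers summed to 229 and 158 against 49.7 and 87.9 CPM, with 3 of 5 called and Sox9 absent from the tables. The highest library of both sums was the first of the first group. Leydig, peritubular and immune markers summed to 66.3 and 40.6 against 34.6 and 45.1 CPM with none of 3 called by limma, spermatocyte markers to 4326 and 3887 against 3321 and 3036 CPM with 6 of 17 called, and elongating spermatid markers to 1824 and 2188 against 2842 and 2563 CPM with none of 5 called. Round spermatid markers summed to 660 and 701 against 702 and 791 CPM, with 5 of 11 higher in the first group and none called by limma. The part of all these markers in the result was not tested. Other enzymes studied in the germ line were not called: Setd2 had 161 and 163 against 176 and 145 CPM, Prmt5 77.8 and 86.9 against 70.2 and 84.0, Kat8 188 and 185 against 175 and 181, and Kdm3a 284 and 299 against 275 and 246.

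**Figure D4:**
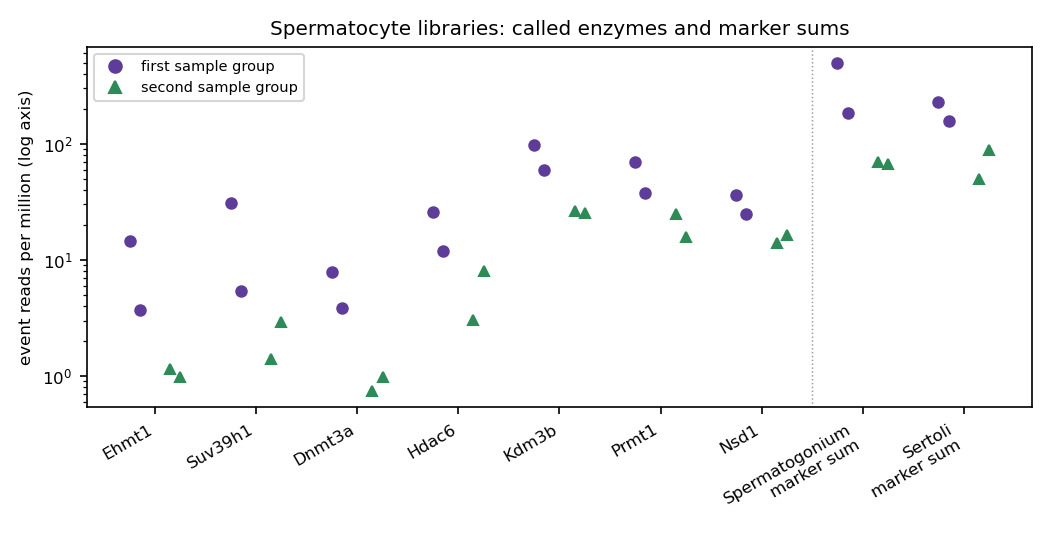
Event reads in CPM (log axis) in the 4 spermatocyte libraries for the 7 members called between the sample groups and, right of the dotted line, the summed spermatogonium and Sertoli markers, with circles for the first and triangles for the second sample group. Both libraries of the first group lie above both of the second in every column.

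Within round spermatids, none of 59 members was called by reads by limma, against 0.0859% of all genes, and 2 had an unadjusted p under 0.05. Kdm1a had 132 and 89.9 CPM in the first against 59.7 and 73.6 CPM in the second sample group (log2 difference 0.72, SE 0.25, adjusted p = 0.287), and without the second library of the first group it was called, at 0.997. Dnmt3l had 12.8 and 14.1 against 21.5 and 21.3 CPM (-0.67, adjusted p = 0.383). Next in order of p, and not called, were Suv39h1 with 2.78 and 3.05 against 1.68 and 1.28 CPM, Kat7 with 166 and 147 against 116 and 122 CPM, Kmt2b with 11.8 and 16.5 against 7.54 and 11.6 CPM, and Setd5 with 50.7 and 36.2 against 31.1 and 31.8 CPM. None of the marker genes tested was called by limma in round spermatids, but some sums separated the sample groups. Sertoli markers summed to 71.1 and 93.9 CPM in the first against 44.7 and 57.3 CPM in the second group, with 4 of 4 higher in the first. Elongating spermatid markers summed to 8895 and 10890 against 14580 and 11430 CPM, with 0 of 5 higher in the first, and round spermatid markers to 3958 and 4309 against 5057 and 4697 CPM, with 1 of 12 higher. Leydig, peritubular and immune markers summed to 33.4 and 24.2 against 19.9 and 21.4 CPM, with 3 of 3 higher. The sums of spermatogonium markers (16.8 and 10.02 against 14.5 and 11.5 CPM) and of spermatocyte markers (1879 and 1742 against 1742 and 1773 CPM) did not separate the groups. The part of these markers in the values of the members was not tested.

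No member event was called by limma for splicing between the sample groups of a stage. In round spermatids 294 events in 59 genes were tested against a background of 0.131% called, and 7 had an unadjusted p under 0.05. In spermatocytes 505 events in 65 genes were tested against 0.537%, and 33 had one. Leaving out a library of the first sample group left that group with 1 library, assumed to vary like the other group. In those fits the calls mostly had less inclusion in the first group, among members as among all events. That direction was thus not particular to the members. Leaving out a library of the second group gave no call by limma, among members or among all events. By FDR under 0.05 and a difference of at least 10 points in the authors' deposited table, 2 member events were called in round spermatids, against 1.47% of all events, and 11 in spermatocytes, against 2.5%.

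Both round spermatid events were in H3K9 writers. A 116-nt cassette exon of Ehmt2 (chromosome 17, 34911363 to 34911478, plus strand) had an inclusion of 28.2% and 32.6% in the first sample group against 43.7% and 49.9% in the second, on 1568 to 2831 reads per library. The groups did not overlap (log2 odds -0.97, SE 0.27, limma adjusted p = 0.122), and the authors' deposited table gives an FDR of 2.17e-07. In spermatocytes the same exon stood at 27.8% and 29.3% against 34.7% and 37.7%, also without overlap and not called (adjusted p = 0.491). Suv39h2 had a 146-nt exon (chromosome 2, 3472502 to 3472647, minus strand) at 64.8% and 67.4% against 75.9% and 77.3% in round spermatids, with an FDR of 0.0251 in the authors' deposited table and a limma adjusted p of 0.641. In spermatocytes it stood at 46.2% and 61.0% against 70.2% and 71.0%. A 33-nt stretch of Nsd3 at an alternative 5 prime splice site was used at 77.3% and 84.7% against 90.3% and 90.9% in round spermatids and at 66.3% and 78.6% against 85.9% and 83.6% in spermatocytes. The remaining members of smallest p in round spermatids were Setd6, Kat2a and Kdm4d, where the Setd6 and Kat2a values rest on 2 skipping reads in 1 library each.

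**Figure D5:**
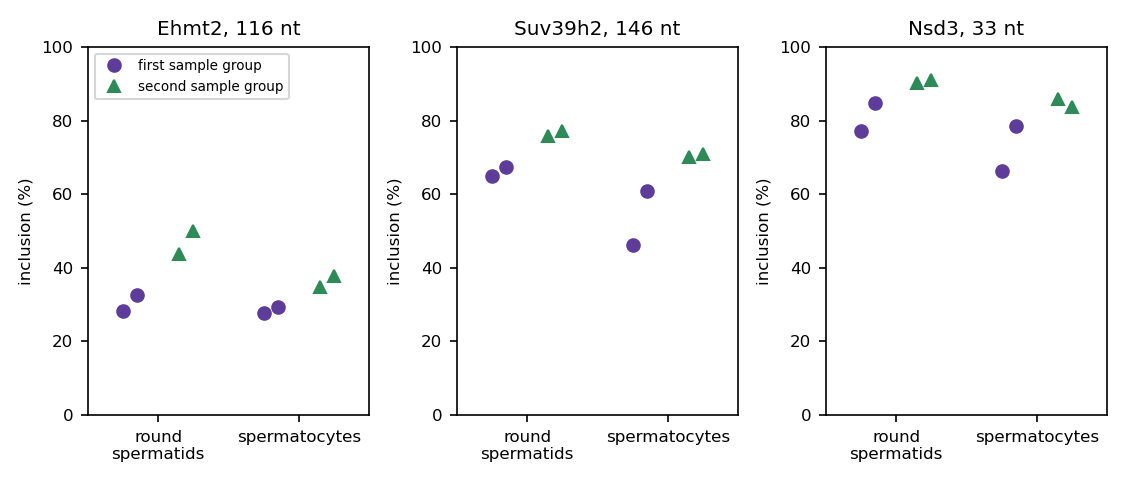
Inclusion in percent (y axis) of an Ehmt2 exon, a Suv39h2 exon and an Nsd3 splice site in each library of round spermatids and spermatocytes, with circles for the first and triangles for the second sample group. The first group lies below the second in all 6 columns, and none of these events was called by limma. Kdm4d, Setd6 and Kat2a, also among the members of smallest p in round spermatids, are not shown. Their mean inclusion there was higher in the first group.

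Within spermatocytes the members of smallest p were Kdm4d, Ezh2, Kdm3b, Kat7, Ehmt1 and Kdm2b, none called. The 600-nt form of the mutually exclusive pair of Kdm3b stood at 70.2% and 70.3% in the first against 56.6% and 50.9% in the second sample group (log2 odds 1.02, limma adjusted p = 0.126), and in the authors' deposited table its FDR was 6.21e-05. A 166-nt Kdm4d exon was at 4.60% and 6.34% against 2.18% and 3.76% (adjusted p = 0.0744), and a 126-nt Ezh2 exon at 9.503% and 5.85% against 1.74% and 3.82% (0.0984). The Ehmt1 value rests on 2 skipping reads in 1 library. Of the 11 spermatocyte events called in the authors' deposited table, 10 had less inclusion in the first group. Over all genes 1152 of the 1653 events called by the same rule did. Among the 11, those of Kdm5c, Kdm1b, Kdm4b, Ehmt1, Hdac7 and Prmt3 were at 100% in both second-group libraries, on 1 to 17 reads each.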

How the data were processed

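STAR and the mm10 build are named in the submitters' processing notes. Neither their versions nor the splicing tool's filters are stated in the sources used here. Per the file headers, the authors' 10 deposited tables give inclusion and skipping read counts for 2 libraries per sample group, form lengths, inclusion levels, a level difference (a signed score), and the authors' p-value with its FDR. Inclusion levels recomputed from the deposited counts lay within 0.0005 of the deposited values.

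Events averaging at least 10 reads per library with a read of each form were tested as log2 odds in limma 3.58.1 (R 4.3.3), with weights from counting variance, with 0.5 reads added in proportion to the event's reads and a spread trend on the rarer form. Reads of each gene's most covered event were tested as log2 CPM with 0.5 reads added. Benjamini-Hochberg adjustment covered every event or gene tested, with calls under 0.05. The stage contrast averaged both sample groups of each stage. For a pair of exclusive exons, inclusion means the first exon on the plus and the second on the minus strand. Plots used matplotlib 3.10.9 in Python 3.11.15.

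The members, gene lists, tests and alternatives were chosen with earlier results of these data known, and the splicing trend and scaling follow a choice made after counts of calls had been seen. With the trend on total reads no event of any gene was called within either stage. Named events were called ones with at least 10 points between means, 1 per gene. Named genes were up to 20 called by size, germ line enzymes fixed by name, and otherwise the 6 of smallest p. Further genes were named after their values were seen. Calls among the listed partner genes within spermatocytes are not reported here.

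The tests were checked on simulated data with known changes. Large changes were mostly recovered and small ones often missed, and the number of false splicing calls depended on the spread that was simulated. The first spread tried, beta-binomial, gave many false calls within the stages, most in round spermatids. A logit-normal spread was added after that result had been seen and gave none within the stages. Between the stages both spreads gave some. Which is nearer to the real libraries is unknown. Most false calls lay outside 10% to 90% inclusion, so calls near 0% or 100% are the least certain.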

Additional observations from a re-analysis of the deposited data

Results flagged for a closer look

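Values of members were examined for a library far from the other 3 of its stage in 76 groups of 4, of which chance would pick about 1 in 20, and 5 stood out. In spermatocytes the first library of the first sample group was high for Suv39h2 (41.6 CPM), Dnmt3b (8.07 CPM) and Kdm5c (3.18 CPM). The first library of the second spermatocyte group was low for Kat6b (9.57 CPM, against 10.7 to 10.8 in the others). In round spermatids the second library of the first group was low for Prmt7 (202 CPM).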

How the results depend on the processing

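No paired analysis was possible because the count columns carry no replicate numbers. Of the 46 members called by reads between the stages, 45 kept the call in every fit leaving out a library (Kdm3b did not), and member counts ran from 42 to 50 over all 14 alternatives. Kdm3b and members that were not called changed sign. With median-ratio scaling the log2 difference was 0.018 for Kdm6b, 0.29 for Ezh2, 0.33 for Prmt7, 0.34 for Kdm1b and 0.41 for Nsd2. With summed events it was -0.047 for Hdac4. Within the second sample groups it was 0.27 for Hdac6, 0.049 for Kdm3b, 0.077 for Ezh2 and -0.0088 for Hdac1, and within the first it was -0.16 for Hdac4, -0.22 for Dnmt3a and -0.47 for Suv39h1. Leaving out 1 library gave Kdm1b -0.52 to 0.36, Nsd2 -0.043 to 0.013 and Hdac1 -0.013 to 0.18. Stage splicing gave 36 member events with unscaled added reads and 6 within the second groups, and 12 to 21 when a library was left out. Within stages, the authors' deposited FDR gave 11 member events in spermatocytes and 2 in round spermatids, and leaving out a library gave 0 to 120 and 0 to 55. Reads gave 1 to 13 members in spermatocytes and 0 to 1 in round spermatids when a library was left out. The cause was not tested. Depth limits the lowest members: Kat6b rests on 3 to 15 reads per round spermatid library. The replicate block was not run.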
